A study of Mus musculus with 4 samples.

Results

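The 10 genes Ttr, Clic6, Otx2, Kl, Folr1, Aqp1, Slc4a5, Enpp2, Prlr and Sostdc1, all known for high expression in the choroid plexus, were followed in the amygdala of mice with and without the P2X7 receptor, as a check of how much ventricular tissue entered each dissection. Every probe that carries 1 of the 10 names on the array was taken, which gave 17 probes of 41174 and 10 genes of 28632. After a filter on dim probes, 14 of the 17 probes and all 10 genes remained among 19463 genes tested. Of the 10 genes, 7 passed the filter in groups of both genotypes, and Ttr, Otx2 and Slc4a5 only through wild-type groups, where they are high, so counts are also given over the 7. The gene names are those of the array design. Whole amygdala was collected from male C57BL/6J mice aged 10 weeks, 6 h after an intraperitoneal injection, and total RNA was labelled with Cy3 and hybridised to 1-colour Agilent arrays. The groups were P2X7R -/- mice given lipopolysaccharide (LPS), P2X7R -/- mice given saline, wild-type mice given LPS and wild-type mice given saline, with 4 arrays each, 16 in all. The labels give the LPS dose as 7.5 µg per mouse and as 250 µg/kg, and 4 mice per group. The deletion is not restricted to a cell type in the labels, and no array is tied to a single mouse, so each p-value reflects only how arrays of one group vary, which may be technical.

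The choroid plexus is a sheet of epithelium over a vascular core that hangs into the brain ventricles and secretes the cerebrospinal fluid. Its epithelial cells make transthyretin in very large amounts, while the neurons and glia of the amygdala make little or none. The amygdala lies against the temporal horn of the lateral ventricle, so that a small piece of plexus can be taken along when it is dissected. In RNA from whole tissue, fewer cells of a type and less RNA per cell cannot be told apart.

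Levels are given as log2 of the background-subtracted spot intensity minus log2 of the 75th percentile of that array's probes, and they are compared only within a probe. Several genes had more than 1 probe. The first 30 of 60 bases of both probes of Folr1 (folate receptor 1, which carries folate across the plexus epithelium) and of Clic6 (a chloride intracellular channel protein) are printed because the Folr1 probes went opposite ways between genotypes and the Clic6 probes the same way. Capitals mark G and C. Coordinates are those of mm9 in the file headers, and which exon, intron or untranslated region a probe lies in was not determined here.
Folr1 brighter probe: tGatCaGCtGaGttCCtGttttaCCttCaG
Folr1 dimmer probe: CtGGGCtttttCCtGtGCtCCGaGtaGGtG
Clic6 brighter probe: GCtCttGtGaCattCaaaCttGGtaaatGa
Clic6 dimmer probe: aaaGCaatGaaGGGatCtCCtGGttCCtta
The brighter Folr1 probe lies on the minus strand at chr7:109006929-109006988 and the dimmer one at chr7:109016972-109017031, 10043 bases apart. G and C make up 53.3% of the brighter probe and 50% of the dimmer one. The Clic6 probes lie on the plus strand at chr16:92541363-92541422, with 35% G and C, and at chr16:92540395-92540454, with 38.3%.

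The arrays came on 4 slides of 4. Slides 1 and 2 held only wild-type arrays, and slides 3 and 4 only knockout arrays. All wild-type arrays were scanned in 1 session and all knockout arrays in another, so genotype cannot be told apart from scan session or set of slides. P2rx7, the targeted gene, lay between -1.69 and -0.80 on the 8 knockout arrays, against -0.15 to 0.90 on the 8 wild-type arrays, by the brighter of its probes, and its other probe overlapped between genotypes. Wild-type saline replicates 1 and 2 stood apart from the rest of their group. The mean level of 12 acute-phase genes, which rise in inflammation, was 0.36 on replicate 1 and 0.47 on replicate 2, while replicate 3 had -4.58 and replicate 4 had -4.44. The same list lay between 0.61 and 1.19 in LPS-treated knockouts, between -4.65 and -3.87 in saline-treated knockouts, and between -1.06 and 0.91 in LPS-treated wild types. The 2 arrays labelled saline thus lay within the range of the LPS-treated wild types on this list. Whether their group label is right was not settled. It bears on every wild-type comparison of LPS with saline, every saline comparison of genotypes and the difference of the LPS response between genotypes. All groups share an estimate of the spread, so calls between genotypes after LPS also moved when these arrays were left out. The main counts and many named values of these comparisons are therefore given with and without them. Other values of these comparisons rest on all 16 arrays, or on the arrays named with them. The amygdala marker list was between 1.02 and 1.63 on all 16 arrays.

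Ttr, which encodes the thyroxine and retinol carrier transthyretin, differed widely between arrays of the same group. Its level was -4.28, -5.98, -6.37 and -7.28 in LPS-treated knockouts, -2.96, -5.40, -6.08 and -6.69 in saline-treated knockouts, -0.17, -1.04, -0.02 and -6.34 in LPS-treated wild types, and -5.53, -5.59, -0.51 and -0.26 in saline-treated wild types, in the order of the replicates. Ttr was thus above all knockout arrays on 5 wild-type arrays and low on the other 3, replicate 4 of the LPS-treated wild types and replicates 1 and 2 of the saline-treated wild types. The highest array was at least 47.1-fold above the lowest in LPS-treated wild types, a bound because the probe was not well above background on replicate 4, and 40.1-fold above it in saline-treated wild types. The highest knockout array, saline replicate 1, lay between the high wild-type arrays and the rest. The probe was well above background on 1 of 4 arrays in each knockout group, on 3 of 4 LPS-treated and on all 4 saline-treated wild types.

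Otx2, the homeobox transcription factor that specifies and maintains the plexus epithelium, was not well above background on any knockout array. Its level was -3.11, -4.44, -1.29 and -6.23 in LPS-treated wild types and -6.37, -6.07, -4.36 and -3.94 in saline-treated wild types. The probe was well above background on the same 5 wild-type arrays on which Ttr was high and on no other.

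For 5 of the 10 genes, the RefSeq promoter table (GRCm38.p6) held windows of 250 bases before to 50 after a transcript start: Otx2, Kl, Aqp1, Slc4a5 and Prlr, with 10 windows in all. The OTX-type core TAATCC, or GGATTA on the other strand, was found in 1 of these windows, at an Otx2 start, and in 7.06% of all 32851 windows. That window, at chr14:48665060-48665359 on the minus strand, is printed because Otx2 is the plexus regulator among the genes, with the match, which begins 211 bases before the start, in capitals.
Otx2 promoter: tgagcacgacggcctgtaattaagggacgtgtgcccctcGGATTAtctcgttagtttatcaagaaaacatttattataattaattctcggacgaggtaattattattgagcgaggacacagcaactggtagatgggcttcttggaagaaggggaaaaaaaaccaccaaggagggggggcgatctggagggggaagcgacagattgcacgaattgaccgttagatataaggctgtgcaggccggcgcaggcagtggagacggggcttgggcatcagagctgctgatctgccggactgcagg
A match is a stretch of letters and says nothing on its own about binding.

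The transporters followed Ttr to different degrees. Slc4a5, a sodium bicarbonate cotransporter of the plexus, was not well above background on any knockout array and lay at -3.30, -4.86, -3.64 and -6.90 in LPS-treated wild types and at -7.14, -7.10, -2.74 and -2.72 in saline-treated wild types. It was well above background on the same 5 wild-type arrays as Otx2. Clic6 was at -0.55, -0.70, -1.21 and -0.73 in LPS-treated knockouts, 0.26, -1.37, -1.51 and -1.30 in saline-treated knockouts, 2.22, 1.60, 2.25 and 0.36 in LPS-treated wild types, and 0.48, 0.81, 1.41 and 1.86 in saline-treated wild types. All 8 wild-type values of Clic6 lay above all 8 knockout values. The brighter Folr1 probe gave -2.54, -3.04, -2.85 and -2.90 in LPS-treated knockouts, -1.40, -2.86, -2.45 and -2.59 in saline-treated knockouts, -0.06, -0.89, 0.04 and -2.52 in LPS-treated wild types, and -3.16, -2.30, -1.02 and -0.80 in saline-treated wild types. The genotypes overlapped for Folr1 in the saline groups and barely separated in the LPS groups. Aqp1, the apical water channel, ranged from -3.36 to -2.74 in LPS-treated knockouts, from -6.43 to -2.59 in saline-treated knockouts, from -4.71 to -1.69 in LPS-treated wild types and from -4.48 to -2.73 in saline-treated wild types. The genotypes overlapped for Aqp1 under both treatments, and knockout saline replicate 1 was the highest of all knockout arrays for Clic6, Folr1 and Aqp1, as for Ttr.

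**Figure D1:**
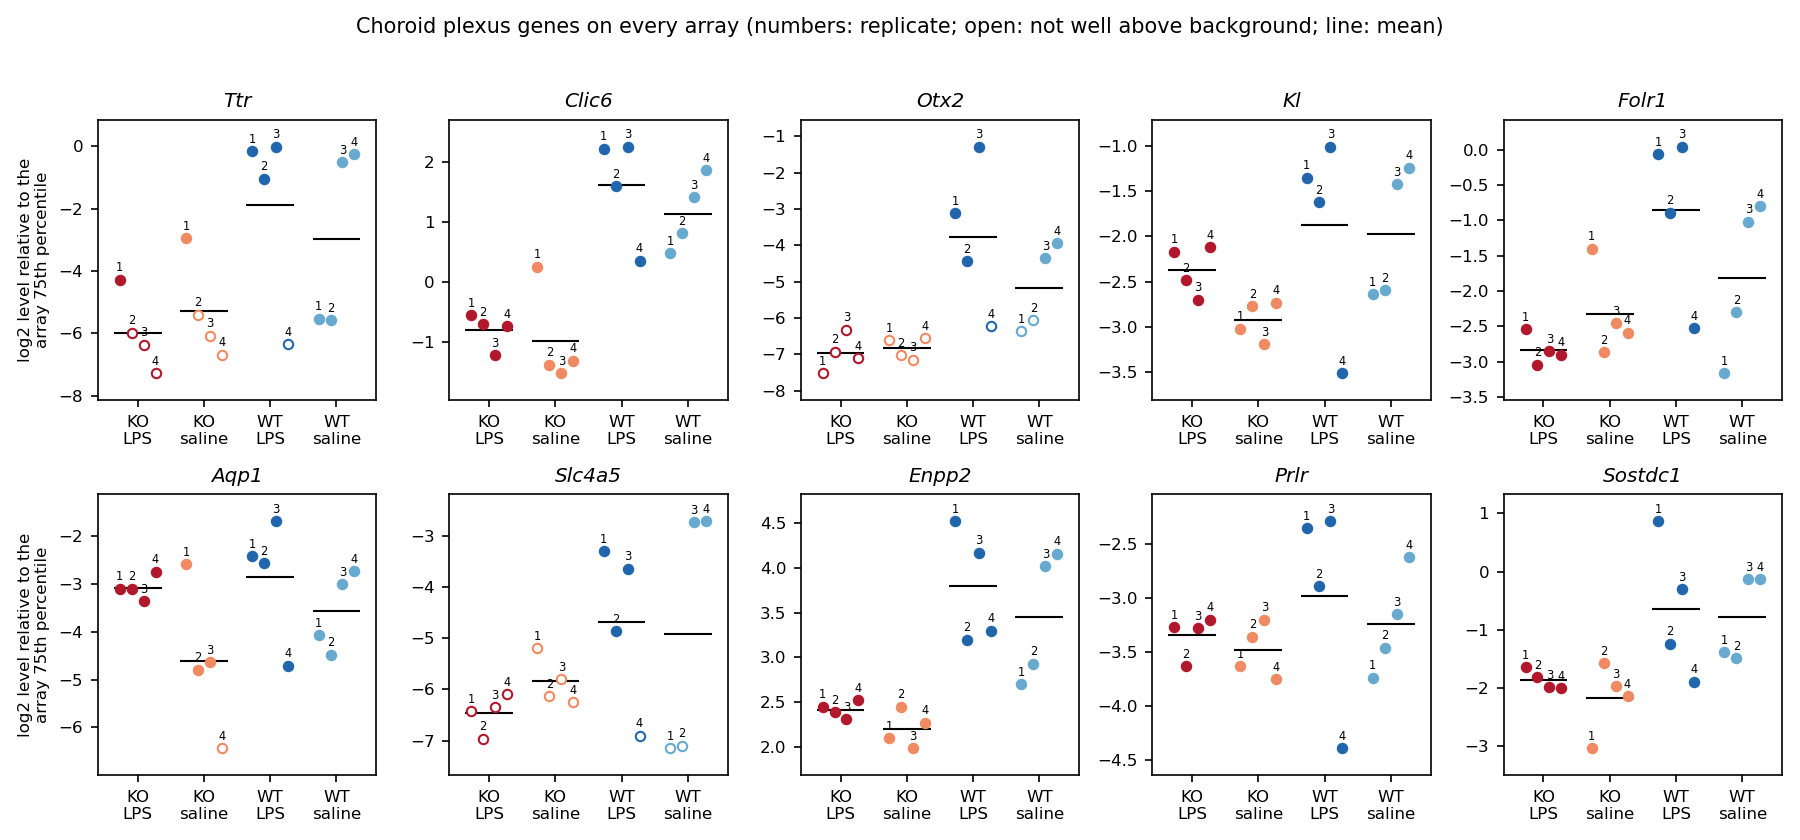
Log2 level of the brightest probe of each of the 10 genes (y axis, minus that of the 75th percentile) on the 4 arrays of each group (x axis), with the replicate number above each point, open points where the probe was not well above background, and a line at the group mean. In most panels wild-type LPS replicates 1, 2 and 3 and wild-type saline replicates 3 and 4 sit at the top.

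Among the genes for secreted and signalling proteins, Enpp2, which encodes autotaxin, the secreted enzyme that makes lysophosphatidic acid, was at 2.45, 2.39, 2.31 and 2.52 in LPS-treated knockouts, 2.10, 2.45, 1.99 and 2.27 in saline-treated knockouts, 4.52, 3.20, 4.17 and 3.30 in LPS-treated wild types, and 2.70, 2.93, 4.02 and 4.16 in saline-treated wild types. All wild-type values of Enpp2 lay above all knockout values. Enpp2 is also expressed by oligodendrocytes, and the mean of 12 oligodendrocyte markers was between -0.05 and 0.11 in LPS-treated knockouts, 0.19 and 0.64 in saline-treated knockouts, 0.33 and 1.78 in LPS-treated wild types, and 0.80 and 2.01 in saline-treated wild types. The part of that list in the Enpp2 difference was not tested. Sostdc1, a secreted antagonist of BMP and Wnt signalling, was at -1.64, -1.81, -1.99 and -2.0 in LPS-treated knockouts, -3.03, -1.58, -1.97 and -2.14 in saline-treated knockouts, 0.86, -1.24, -0.30 and -1.89 in LPS-treated wild types, and -1.39, -1.49, -0.13 and -0.13 in saline-treated wild types. Here knockout saline replicate 1 was the lowest of all arrays, unlike for Ttr, Clic6, Folr1 and Aqp1. Kl, the co-receptor for fibroblast growth factor 23 whose ectodomain is shed into the cerebrospinal fluid, ranged from -2.70 to -2.12 in LPS-treated knockouts, -3.19 to -2.73 in saline-treated knockouts, -3.51 to -1.01 in LPS-treated wild types and -2.64 to -1.24 in saline-treated wild types. Prlr, the prolactin receptor, ranged from -3.63 to -3.20 in LPS-treated knockouts, -3.75 to -3.20 in saline-treated knockouts, -4.39 to -2.29 in LPS-treated wild types and -3.74 to -2.62 in saline-treated wild types. For Kl and Prlr, wild-type LPS replicate 4 was the lowest of the 16 arrays.

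The same arrays were high for most of the genes. Among the 5 highest of its 16 arrays, each of the 10 genes had wild-type LPS replicates 1 and 3 and wild-type saline replicate 4, and 9 of the 10 had wild-type LPS replicate 2 and wild-type saline replicate 3. Replicate 4 of the LPS-treated wild types and replicate 1 of the saline-treated knockouts were each among the 5 highest for 1 gene, and the other 9 arrays for none. The mean level of the 10 genes was -2.90, -3.22, -3.21 and -3.16 in LPS-treated knockouts, -2.61, -3.28, -3.40 and -3.62 in saline-treated knockouts, -0.51, -1.48, -0.38 and -3.28 in LPS-treated wild types, and -3.09, -2.93, -1.09 and -0.84 in saline-treated wild types. On this mean, wild-type LPS replicate 4 and wild-type saline replicates 1 and 2 lay within the range of the knockout arrays.

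**Figure D2:**
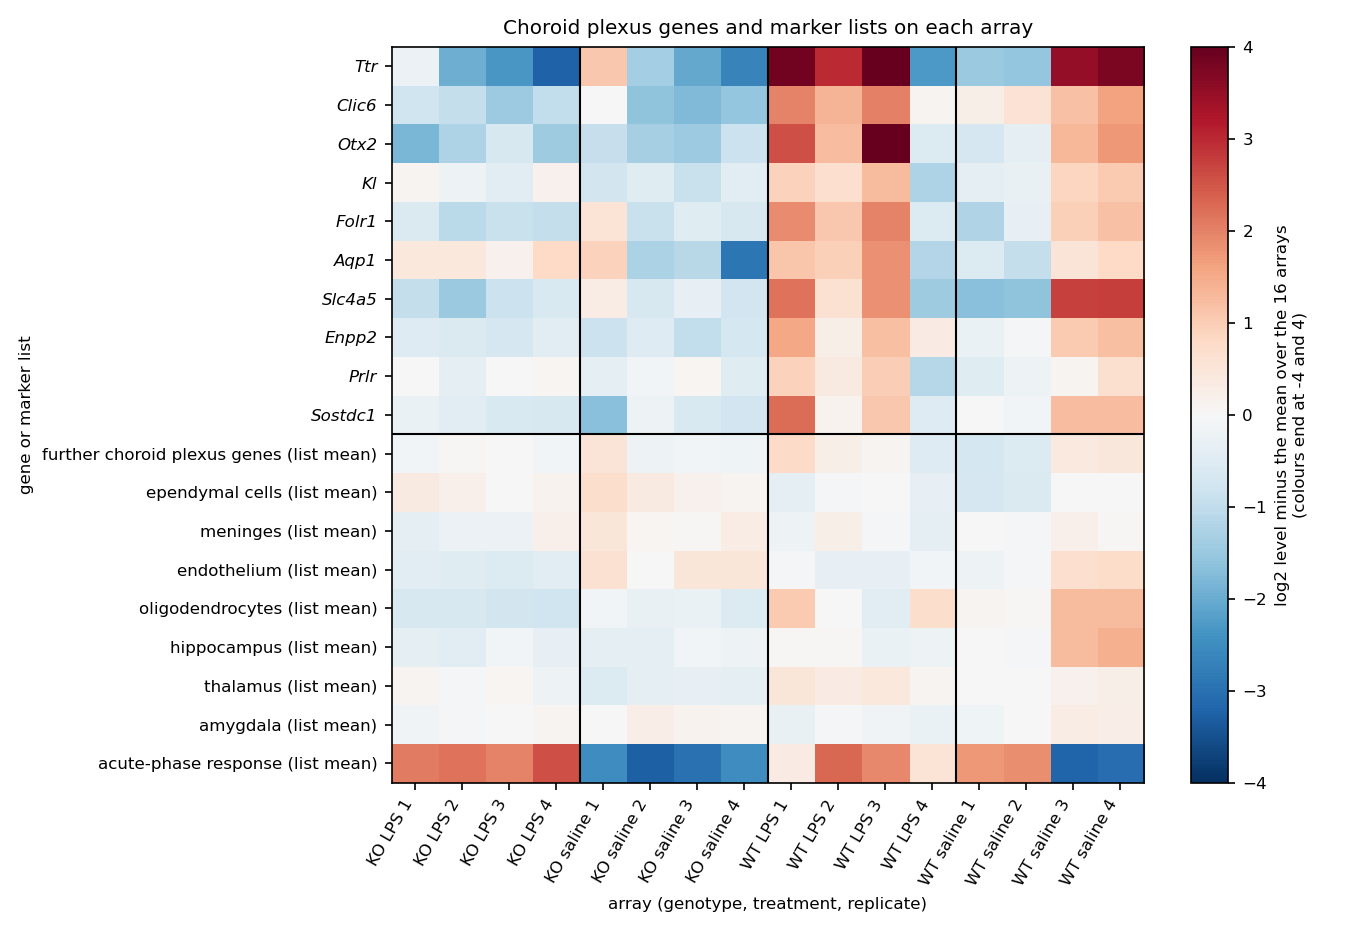
Level of each of the 10 genes, and mean level of each marker list, on the 16 arrays (x axis), as log2 difference from the mean of that row over all arrays (colour, ending at -4 and 4). The 5 wild-type columns that are red for Ttr are also red for most of the other 9 genes, while the acute-phase row separates the arrays in another way.

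The spread between arrays of a group was wide for these genes. The within-group standard deviation (SD, pooled over the 4 groups) was 2.36 for Ttr, 1.54 for Slc4a5, 1.24 for Otx2 and 1.11 for Aqp1, against a median of 0.36 over all genes tested. Without wild-type saline replicates 1 and 2 these SDs were 2.0 for Ttr, 0.95 for Slc4a5, 1.19 for Otx2 and 1.13 for Aqp1, against a median of 0.35. Over all 16 arrays these 4 genes lay at or above percentile 98.3 of all genes, and Enpp2 was lowest of the 10 at percentile 74.9 with 0.51. In LPS-treated wild types each of the 10 genes lay at or above percentile 87.2 for its SD, and in LPS-treated knockouts only Ttr, at 99.8, and Otx2, at 91, did so. In LPS-treated knockouts Otx2 was well above background on 0 of 4 arrays and Ttr on 1, so these percentiles rest largely on dim values. Over the 16 arrays Slc4a5 and Otx2 were well above background on 5 and Ttr on 9, so their pooled SDs also include dim values.

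LPS was set against saline within each genotype to ask whether the injection changed these genes. None of the 10 genes was called at an adjusted p of 0.05 in knockouts, where 3.64% of all genes were called by limma with Benjamini-Hochberg adjustment, and none in wild types, where 0.0103% were. At an unadjusted p of 0.05, 1 of the 10 passed in knockouts, Aqp1 (log2 difference 1.54 ± 0.70, SE, adjusted p = 0.324), against 14.5% of all genes, and 0 in wild types, against 6.60%. The median log2 difference of the 10 genes was 0.16 in knockouts and 0.41 in wild types, against -0.09 and -0.04 over all genes. For Ttr the difference in wild types was 1.08 ± 1.47 (SE, adjusted p = 0.969). No gene of the 10 was called for a difference of the LPS response between genotypes, in which 0.0360% of all genes were called and 0 of the 10 passed at an unadjusted p of 0.05, against 6.90% of all genes.

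Within single slides the wild-type comparison took opposite directions. On slide 1, which held wild-type LPS replicates 1 and 3 and wild-type saline replicates 1 and 2, the LPS arrays were higher for 10 of 10 genes, with log2 differences from 1.28 for Prlr to 5.47 for Ttr. On slide 2, which held wild-type LPS replicates 2 and 4 and wild-type saline replicates 3 and 4, they were lower for 10 of 10 genes, with differences from -3.31 for Ttr to -0.66 for Clic6. The 10 genes moved together across wild-type arrays, so these counts of directions are not 10 separate results. The share of all genes in each direction within a slide is not given. Ttr was the 1 gene of the 10 called on slide 1 (adjusted p = 0.0251 in limma, 2 arrays against 2), where 0.0103% of all genes were called. None of the 10 was called on slide 2, where 1.26% were. In knockouts, 7 of the 10 differences were positive on slide 3 and 5 on slide 4, with medians of 0.24 and -0.04. Without wild-type saline replicates 1 and 2, 0 of the 10 genes were called for LPS in wild types, where 3.14% of all genes were called, and 0 for the difference between genotypes, where 0.00514% were. The Ttr difference in wild types was then -1.51 (adjusted p = 0.694), turned from its direction over all arrays.

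**Figure D3:**
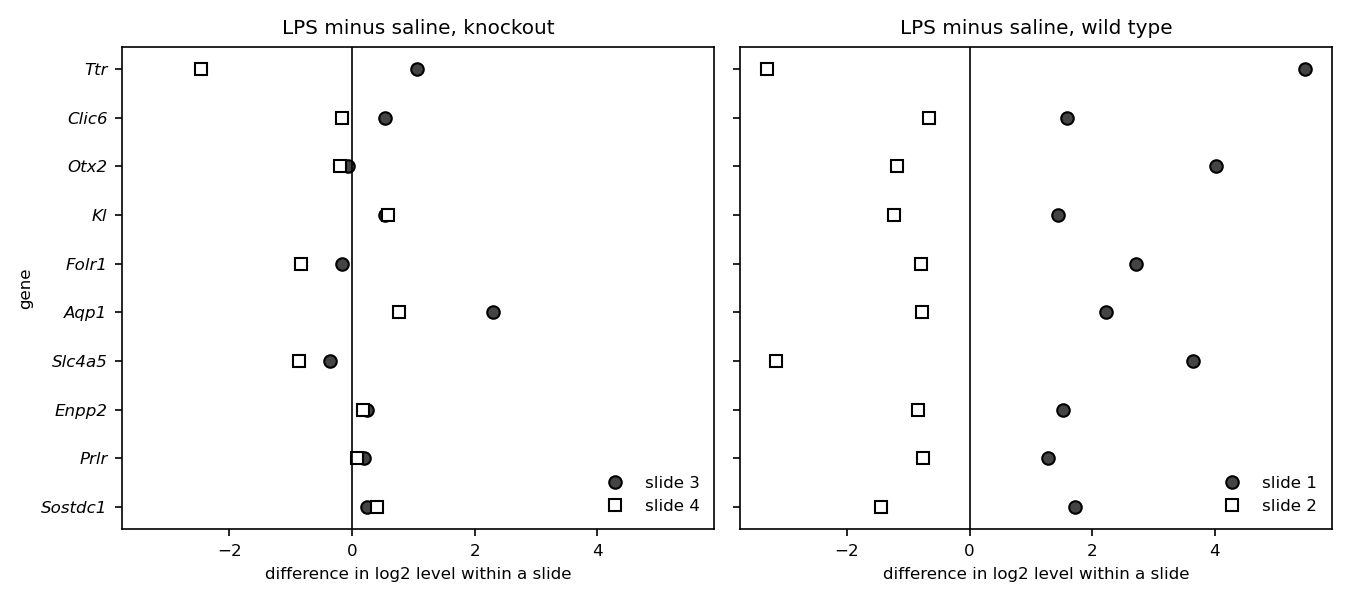
Log2 difference, LPS minus saline, of each of the 10 genes (y axis) within each slide, for knockouts on the left (slides 3 and 4) and wild types on the right (slides 1 and 2). In wild types all 10 differences are positive on slide 1 and negative on slide 2.

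Knockout was set against wild type within each treatment. After LPS, 5 of the 10 genes were lower in knockouts at an adjusted p of 0.05 and none higher, and 3 of the 7 that passed the filter in both genotypes. The share of all genes called in this comparison was 47.2%, 21.2% of them all being lower and 25.9% higher. Clic6 was lower by a log2 difference of -2.41 ± 0.45 (SE, adjusted p = 0.00051), Enpp2 by -1.38 ± 0.33 (adjusted p = 0.00352) and Folr1, by its brighter probe, by -1.98 ± 0.56 (adjusted p = 0.00892). Otx2 was at least 2.29-fold lower (adjusted p = 0.00367), a bound because its probe was not well above background in knockouts. With normexp background correction the Otx2 difference was -0.65 on the log2 scale, smaller than that bound. Ttr was lower by -4.09 ± 1.47 (adjusted p = 0.0319), with 1 wild-type array, LPS replicate 4, inside the knockout range. The Ttr probe was not well above background on 3 of the 4 knockout arrays and on that wild-type array, and with normexp the difference was -2.10 (adjusted p = 0.0203). Otx2 and Ttr were kept for testing only because wild-type arrays are bright, so their calls are not independent of the filter. Sostdc1 missed the threshold at -1.22 ± 0.50 (adjusted p = 0.0544), and Slc4a5 was at least 1.22-fold lower with an adjusted p of 0.139. Kl was at -0.49 ± 0.45, Prlr at -0.36 ± 0.37 and Aqp1 at -0.23 ± 0.70, with adjusted p of 0.381 or more. For 4 of the 10 genes all knockout values lay below all wild-type values, which held for 23.5% of all genes. Otx2 is among the 4, though its probe was not well above background on the knockout arrays or on wild-type LPS replicate 4.

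After saline, 3 of the 10 genes were lower in knockouts and none higher, all among the 7 that passed the filter in both genotypes, in a comparison in which 50.9% of all genes were called, 22.3% lower and 28.6% higher. Clic6 was lower by -2.12 ± 0.45 (SE, adjusted p = 0.00122), Enpp2 by -1.25 ± 0.33 (adjusted p = 0.00609) and Sostdc1 by -1.39 ± 0.50 (adjusted p = 0.0285). Ttr, at -2.31 ± 1.47 (adjusted p = 0.201), and Folr1, at -0.51 ± 0.56 (adjusted p = 0.464), did not pass. The knockout values lay below all wild-type values for 5 of the 10 genes, against 20.2% of all genes, and without wild-type saline replicates 1 and 2 for 9 of the 10, against 27.8%. Otx2 is among the 5 and, with Ttr and Slc4a5, among the 9, and these genes passed the filter only through wild types. The Otx2 probe was not well above background on the knockout arrays or on wild-type saline replicates 1 and 2. The median log2 difference of the 10 genes was -1.58 after LPS and -1.15 after saline, against 0.05 and 0.07 over all genes tested. By their brightest probes 10 of 10 were negative under both treatments. Of all 19463 genes, 10158 were positive after LPS and 10286 after saline. Folr1 was negative after saline by its brighter probe only, and with the mean of both its probes it was at 1.06 (limma adjusted p = 0.0524). Without wild-type saline replicates 1 and 2 the saline median was -1.97, against 0.03 over all genes. The LPS and saline comparisons of genotypes set different arrays against each other. They share the estimate of the spread, though, and each rests on both scan sessions.

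The genotype counts depended on single wild-type arrays. Without wild-type saline replicates 1 and 2, 7 of the 10 genes were lower in knockouts after saline, where 35.8% of all genes were called, 16% lower and 19.8% higher. Of the 7 genes that passed the filter in both genotypes, 4 were lower, and the other 3 calls were Ttr, Otx2 and Slc4a5, which passed it only through wild types. The added calls were Ttr (-4.90, limma adjusted p = 0.0211), Kl (-1.59, adjusted p = 0.0244), Otx2 (adjusted p = 0.0321) and Slc4a5 (adjusted p = 0.00516), the last pair not well above background in knockouts. Clic6 (-2.62), Enpp2 (-1.88) and Sostdc1 (-2.05) were still called, and Folr1 (-1.41, limma adjusted p = 0.0692) was not. After LPS the count was then also 7, with 49.3% of all genes called in either direction, by the addition of Slc4a5 and Sostdc1. Without wild-type LPS replicate 4, 9 of the 10 genes were lower in knockouts after LPS, where 45.8% of all genes were called in either direction. After saline 5 were then lower, where 51.0% of all genes were called in either direction. Both LPS counts include Ttr, Otx2 and Slc4a5, which passed the filter only through wild types. On wild-type LPS replicate 4 these genes were not well above background. The Ttr call after LPS was lost with slide as a random block (adjusted p = 0.0802), and when any 1 of knockout LPS replicates 2, 3 and 4 or wild-type LPS replicates 1, 2 and 3 was left out (adjusted p = 0.0592 to 0.0913). The Sostdc1 call after saline was lost with slide as a block (adjusted p = 0.0714) and without knockout saline replicate 1 (adjusted p = 0.0895), and without replicate 3 (0.0791) or replicate 4 (0.0813) of the saline-treated wild types. Over the alternatives run, the adjusted p of Ttr after LPS ranged from 0.00292 to 0.0913, and 7 of 26 did not pass. Clic6 and Enpp2 passed under all 27 alternatives with both treatments. Each slide held 1 genotype, so slide could enter these comparisons only as a random block. None of the alternatives can remove a difference between the scan sessions.

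**Figure D4:**
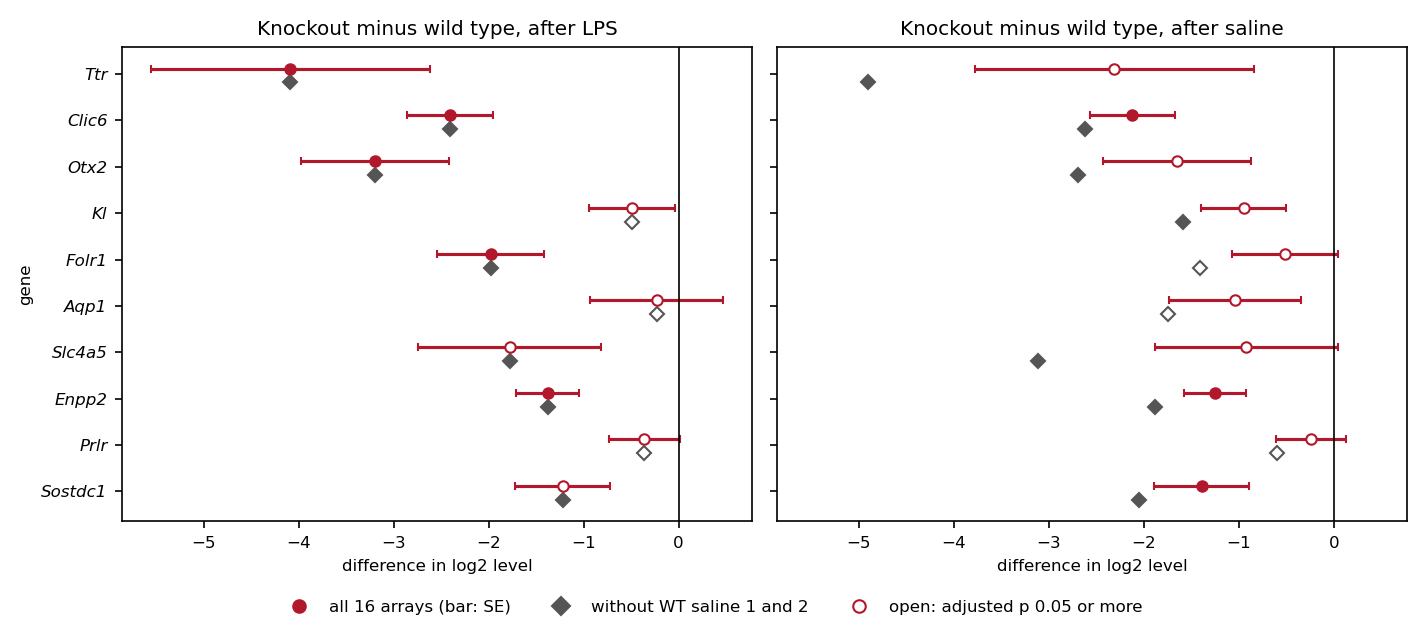
Log2 difference, knockout minus wild type, of each of the 10 genes (y axis) after LPS on the left and after saline on the right, over all 16 arrays (circles, bars are standard errors) and without wild-type saline replicates 1 and 2 (diamonds), open where the adjusted p was 0.05 or more. For Otx2 and Slc4a5 the knockout arrays were not well above background, so their points are fitted values and not measured folds. Without those 2 arrays every saline difference is further below 0.

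The Folr1 probes disagreed on genotype. The dimmer probe gave -3.77, -4.21, -3.41 and -4.10 in LPS-treated knockouts, -3.77, -3.99, -3.50 and -3.51 in saline-treated knockouts, -4.93, -5.24, -4.93 and -5.83 in LPS-treated wild types, and -6.93, -7.31, -5.54 and -5.47 in saline-treated wild types. All knockout values lay above all wild-type values, the reverse of the brighter probe after LPS. By the dimmer probe the knockouts were higher by 1.36 ± 0.37 after LPS (SE, limma adjusted p over all kept probes = 0.0068) and at least 4.47-fold higher after saline, where no wild-type array was well above background. That bound was 3.52-fold with saline replicates 3 and 4 as the only wild types. Of the 8 wild-type arrays only LPS replicates 2 and 3 had the dimmer probe well above background, so its values on the other 6 have no order. With the mean of both probes in place of the brighter one, Folr1 differed by -0.31 after LPS (adjusted p = 0.579). After saline that mean was higher in knockouts, by 1.06 (adjusted p = 0.0524), the reverse of the brighter probe. After normexp background correction the brighter probe differed by -0.75 (adjusted p = 0.104). The dimmer Clic6 probe did not pass, with -1.32 ± 0.53 after LPS (adjusted p = 0.0514) and -1.14 ± 0.53 after saline (adjusted p = 0.084). Of the Prlr probes, the one that is brightest did not pass in either comparison, and another, with 45% G and C, was lower after LPS by -0.83 ± 0.24 (adjusted p = 0.0111).

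**Figure D5:**
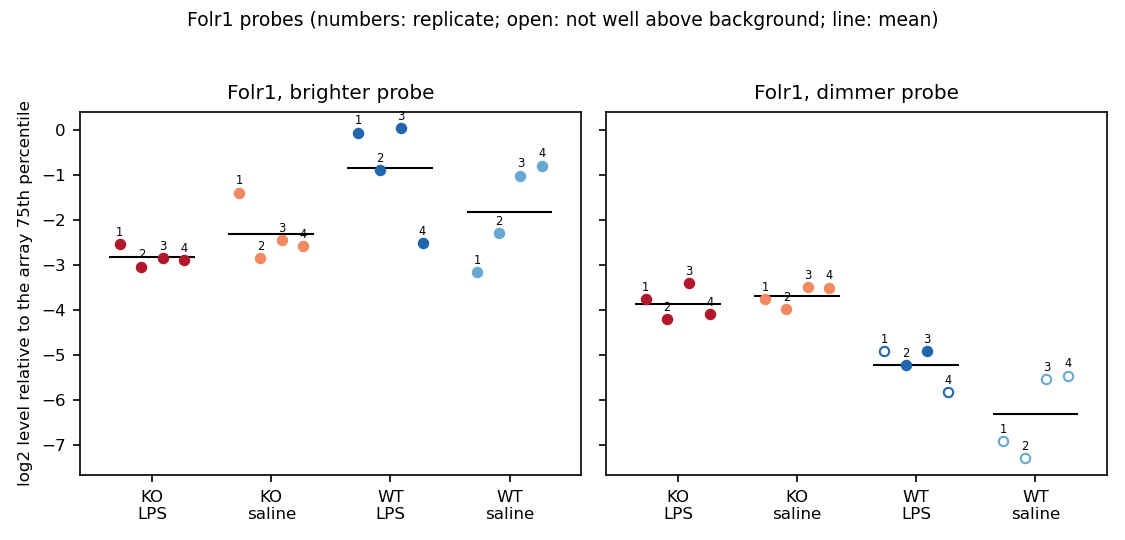
Log2 level of the brighter (left) and the dimmer (right) Folr1 probe on the 4 arrays of each group, with replicate numbers, open points where not well above background, and a line at the group mean. Knockout arrays lie low on the left after LPS and high on the right, where 6 of the 8 wild-type points are open.

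Probe composition moved with genotype over the whole array. The median log2 difference of knockout from wild type after saline was -0.31 over genes whose probe held 35% or less G and C, and 0.58 over genes with more than 50%. The brightest probes of 9 of the 10 genes held between 30% and 43.3%, and that of Folr1 53.3%. With the median of probes of like composition subtracted on each array, an alternative added after the values were seen, Clic6 differed by -2.25 after LPS and -1.91 after saline, Enpp2 by -1.33 and -1.15, and Ttr by -4.04 and -2.20.

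The authors' deposited tables held normalized group values for 7 of the 17 probes and fold changes for 4. In the authors' deposited table Clic6 was 5.30-fold down in knockouts after LPS and 4.36-fold down after saline, Enpp2 2.60-fold and 2.38-fold down, Sostdc1 2.33-fold and 2.63-fold down, and Folr1, by the brighter probe, 3.92-fold and 1.42-fold down. For these 4 probes the folds fitted here were 5.30 and 4.35, 2.60 and 2.37, 2.33 and 2.63, and 3.94 and 1.42.

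Of 25 further genes of the plexus epithelium, 19 were measured. In LPS-treated knockouts 1 of 19 fell against saline, the sulfate transporter Slc13a4 (-1.35 ± 0.26, adjusted p = 0.00721), where 1.14% of all genes were called lower, and 0 of 19 were called in wild types (2 at an unadjusted p of 0.05). Slc13a4 was lower in knockouts after LPS (-0.69 ± 0.26, adjusted p = 0.0386) and higher after saline (0.75 ± 0.26, adjusted p = 0.0253). Knockouts against wild types gave 2 higher and 4 lower of 19 after LPS, and 6 higher and 3 lower after saline. Over all genes 25.9% were higher and 21.2% lower after LPS, and 28.6% higher and 22.3% lower after saline, so the counts of this list lie near those shares except for fewer higher calls after LPS. The saline counts were 3 higher and 3 lower when wild-type saline replicates 1 and 2 were left out. The lower ones included Cldn2, the pore-forming claudin of the plexus (at least 1.84-fold lower after LPS, adjusted p = 0.00104, not well above background in knockouts), and Slc29a4, a monoamine transporter (-0.81 ± 0.21 after LPS, adjusted p = 0.00527). After saline, Kcne2, a potassium channel subunit of the apical membrane (-2.51 ± 0.88, adjusted p = 0.0269), and Steap1 (-3.11 ± 1.0, adjusted p = 0.0174) were lower. The higher ones included Spint2, an inhibitor of serine proteases (2.21 ± 0.36 after saline, adjusted p = 0.000181), Cdkn1c, a cell cycle inhibitor (1.61 ± 0.34, adjusted p = 0.00129), and Stra6, the receptor for retinol-binding protein (1.86 ± 0.45, adjusted p = 0.00305). Slc16a8, a lactate transporter (1.27 ± 0.29, adjusted p = 0.00223), and Slco1a5, an organic anion transporter (2.02 ± 0.60, adjusted p = 0.0112), were also higher after saline. With those 2 arrays left out, Kcne2 (-4.41, limma adjusted p = 0.000326), Spint2 (1.90, 0.00112), Cdkn1c (1.39, 0.0139) and Stra6 (2.26, 0.00599) were still called after saline. Steap1 (adjusted p = 0.0843), Slc16a8 (0.0538), Slco1a5 (0.222) and Slc13a4 (0.289) then were not. Besides Kcne2, the lower calls after saline without those arrays were Cldn2 (limma adjusted p = 0.0107) and F5 (0.0475). Neither Cldn2 nor F5 was well above background in knockouts. The median of the 19 was -0.14 after LPS and 0.35 after saline, and -0.28 after saline without those 2 arrays.

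Markers of other cells of the ventricle wall and the surrounding tissue were read on the same arrays. The mean of 11 ependymal markers lay between -1.53 and -1.21 in LPS-treated knockouts, -1.46 and -0.85 in saline-treated knockouts, -1.95 and -1.59 in LPS-treated wild types, and -2.24 and -1.55 in saline-treated wild types. Of these 11 markers, 4 were higher and 0 lower in knockouts after LPS, and 6 higher and 0 lower after saline. The ependymal counts after saline were 3 higher and 2 lower when wild-type saline replicates 1 and 2 were left out, so the absence of lower calls after saline rests on those arrays. These counts and those that follow are read against the shares of all genes given above. Of 16 meningeal markers, 1 was higher and 2 lower in knockouts after LPS, and 5 higher and 3 lower after saline. Of 11 endothelial markers the counts were 1 higher and 3 lower after LPS, and 2 higher and 1 lower after saline. Of 12 oligodendrocyte markers, 1 was higher and 9 lower after LPS, and 0 higher and 7 lower after saline. Hippocampal markers gave 2 higher and 3 lower of 9 after LPS and 1 higher and 5 lower after saline, thalamic markers 1 higher and 4 lower of 8 and 1 higher and 5 lower, and amygdala markers 2 higher and 1 lower of 11 and 3 higher and 1 lower. With the same arrays left out, the counts after saline were 4 higher and 4 lower for meningeal, 0 and 2 for endothelial, 0 and 9 for oligodendrocyte, 0 and 6 for hippocampal, 0 and 3 for thalamic and 1 and 2 for amygdala markers. The hippocampal mean in saline-treated wild types was -2.53, -2.60, -1.27 and -1.12, higher on replicates 3 and 4 than on any of the other arrays. The part of tissue composition in the differences of the 10 genes was not tested.

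Likeness to Ttr was measured as Pearson's r between deviations from the group means over the 16 arrays, as a description. Among the other 9 genes r ran from 0.61 for Sostdc1 to 0.93 for Folr1, with a median of 0.82, and 8 of 9 lay above 0.7. Over all genes the median was 0.06 and 171, or 0.88%, lay above 0.7. With wild-type saline replicates 1 and 2 left out, r ran from 0.45 for Sostdc1 to 0.92 for Folr1. Within the 8 knockout arrays r ran from -0.42 for Sostdc1 to 0.79 for Clic6 and Folr1, but Ttr was not well above background on 6 of them. Without knockout saline replicate 1 the knockout r of Clic6 and Folr1 was 0.52. In wild types Ttr fell into a high and a low set of arrays, so r there follows that split. The 12 genes outside the 10 with the highest r were Calml4 (0.95), the zinc transporter gene Slc39a4 (0.94), Krt18, a keratin of simple epithelia (0.93), Wfdc2 (0.92), Cfap52 (0.92), Ecrg4 (0.91), AI467606 (0.91), Tjp3, a tight junction scaffold (0.90), Spaca9 (0.90), Pifo (0.89), Kcne2 (0.88) and Col8a2, a collagen chain (0.88). Without replicate 4 of both wild-type groups, the 2 arrays on which Ttr deviated most, r of these 12 was between 0.81 and 0.92. The ranking depended on the arrays used: 4 of the 12 were also among the top 12 over wild-type arrays alone and 0 among those over knockout arrays alone. Over knockout arrays alone r of these 12 ran from 0.43 for Ecrg4 to 0.93 for Calml4. Of the 19 further plexus genes 8 lay above 0.7, of the 11 ependymal markers 2, of the meningeal, endothelial and hippocampal lists 1 each, and of the oligodendrocyte, thalamic, amygdala and acute-phase lists none.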

How the data were processed

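Per the submitters' processing notes the arrays were read with Agilent Feature Extraction 9.5. Per the file headers the processed intensity used here is linear, background-subtracted and detrended within each array, and not scaled between arrays. The authors' deposited tables hold normalized log2 group means and linear fold changes (a ratio of group means), and their 31 columns of detection calls per array were not used. Here each intensity was divided by the array's 75th percentile and taken to log2. Control spots and outlier spots were left out. A probe was kept if 3 or more of the 4 arrays in 1 group had it well above background, which left 28347 probes, and the brightest kept probe stood for a gene, 19463 in all. The 75th percentile was between 345.9 and 1164.7 intensity units, 58.1% to 71.9% of probes were well above background per array, and the number of arrays limits the precision.

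Group means were fitted over all 16 arrays with limma 3.58.1 (R 4.3.3, statmod 1.5.0), and p-values were adjusted by Benjamini-Hochberg over all genes. Where no array of a group had a probe well above background, its level there is only a bound: the bright group's mean against, on each dim array, the higher of the lowest level well above background and the probe's own. The fit was tested on simulated data with the median spread of all genes (SD 0.36). Each of the 10 genes had a wider spread (0.51 or more), so that test does not cover calls for them. Genes named were all 10 members in every comparison, the called genes of the further plexus list (at most 10 by p), and the 12 genes most like Ttr. F5 of the further list was also named, for its call after saline without wild-type saline replicates 1 and 2. The genes, lists and alternatives were chosen with earlier results of these data known. Over 20703 probes the smallest median absolute difference between any 2 arrays was 0.12 (log2), so none was a copy. Promoter sequences are from RefSeq, build GRCm38.p6.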

Additional observations from a re-analysis of the deposited data

Results flagged for a closer look

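In 40 sets of 4 arrays (10 genes in 4 groups), 2 held an array far from the others by Dixon's criterion, where chance gives about 1 in 20. Ttr in LPS-treated wild types was at -6.34 on replicate 4, a gap of 0.838 of the group's whole range from the nearest other array. Clic6 in saline-treated knockouts was at 0.26 on replicate 1, a gap of 0.882 of the range.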

How the results depend on the processing

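None of the called differences changed sign under any alternative run, but no alternative put another probe of a gene alone in place of the brightest. The dimmer Folr1 probe was called in the reverse direction after LPS (1.36, limma adjusted p over all kept probes = 0.0068). Counts of the 10 genes called for LPS in knockouts and for the difference between genotypes were 0 under every alternative, and for LPS in wild types 0 except within slide 1, where it was 1. For knockouts against wild types after saline the count was 7 without both wild-type saline replicates 1 and 2, and leaving out 1 array at a time gave 2 to 5 against 3 over all arrays. After LPS, leaving out 1 array at a time gave 4 to 9 against 5, the 9 without wild-type LPS replicate 4, which also gave the 5 after saline. With the replicate block the counts were 3 after saline and 5 after LPS, and 0 in the other comparisons, so the block moved no count. Arrays of the same number did not deviate together (r between -0.38 and 0.34), and the labels name no source they share. With slide as a block the counts were 2 after saline and 4 after LPS. Over all arrays 50.9% of all genes were called after saline and 47.2% after LPS. Matching shares are not given for the slide block, the replicate block or most fits without 1 array. Whether a count moved more than the whole array did was therefore not tested there. Over single genes and alternatives, 1280 values kept direction and side of the threshold, 56 uncalled values changed sign, 21 passed only under the alternative, and 13 no longer passed. Of those 13, 7 were Ttr after LPS, 4 Sostdc1 after saline and 2 Folr1 after LPS. Normexp background correction brought the Ttr difference after LPS to -2.10 and that of Otx2 to -0.65. Arrays in which dim probes are not well above background (5 of 16 above it for Otx2 and Slc4a5) limit what can be measured for these genes in knockouts. The authors' deposited group values come without replicates and gave no test. The correction for base composition, and the marker lists, likeness to Ttr and SDs without wild-type saline replicates 1 and 2 or knockout saline replicate 1, were added after the data were seen.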
